A study of Mus musculus with 16 samples.

Results

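The genes described here are the 51 vomeronasal receptors Vmn1r4 to Vmn1r54, which lie together on chromosome 6 and make up 51 of the 24407 genes in the count tables. They were chosen by name alone, as every gene listed in both the count and the RPKM tables whose symbol is Vmn1r followed by a number from 4 to 54, without pseudogenes. The tables hold 151 other Vmn1r genes, which lie outside this number range.

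RNA was sequenced from the vomeronasal organ (VNO), the pheromone-sensing organ of the mouse nose, in 4 High Runner (HR) lines (3, 6, 7 and 8), bred for high voluntary wheel running, and 4 non-selected Control lines (1, 2, 4 and 5). Both linetypes descend from the outbred Hsd:ICR strain, and the mice came from generation 88 and were 12 weeks old. Each line gave 1 male and 1 female library, each from the pooled VNOs of 3 mice, so that 16 libraries stand for 8 lines and 4 groups. Because mice were pooled, no value belongs to a single animal, and the spread between mice of a line cannot be seen.

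Vomeronasal sensory neurons fall into an apical layer, which uses receptors of the V1R family with the G protein subunit Gnai2, and a basal layer, which uses receptors of the V2R family with Gnao1. V1R proteins are seven-helix receptors encoded by a single coding exon, and many of them respond to small molecules in urine, including volatile and steroid compounds. A V1R neuron transcribes in the main 1 receptor gene and from 1 of its alleles, so the level of a receptor in bulk tissue depends on how many neurons chose it as well as on how much RNA each of them holds. Deletion of a cluster of V1ra and V1rb genes on this chromosome is known to alter maternal aggression and male sexual behaviour.

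The 51 genes form 3 blocks on chromosome 6 in the GRCm38 build, with positions taken from GENCODE release M21. The first block holds Vmn1r4 to Vmn1r31, 28 genes between chr6:56924015-58475330 over 1.551 Mb, most of which carry older V1rc names. The second block holds Vmn1r32 to Vmn1r39, 8 genes between chr6:66552180-66810609 over 0.258 Mb, also named V1rc where an older family name exists. The third block holds Vmn1r40 to Vmn1r54, 15 genes between chr6:89707540-90271213 over 0.564 Mb, with V1ra and V1rb names. This last block includes Vmn1r49, the former V1rb2, known as a receptor for 2-heptanone. All 51 genes are annotated as protein coding.

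The coding sequences of the first and second blocks resembled each other more than either resembled the third. The median pairwise identity was 81.7% within the first block, 81.1% between the first and the second, 89.4% within the second and 68.1% within the third. Against the third block it was 54% for the first block and 54.5% for the second. For 50 of the 51 genes the closest relative lay in the same block, the exception being Vmn1r11, whose closest relative was Vmn1r32 at 86.8%.

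Likeness of this degree bears on what the counts hold, since only reads of 75 bases with 1 location in the genome and 0 mismatches were kept. Of the stretches of 75 bases in the annotated transcripts, the median receptor had 98.0% found in no other gene, and 7 of the 51 genes had less than 80%. The lowest were Vmn1r48 with 36.4%, Vmn1r41 with 51.6%, Vmn1r10 with 66.3%, Vmn1r37 with 67.6%, Vmn1r36 with 70.5% and Vmn1r7 with 71.5%. Levels of these genes are uncertain, because part of their reads could not be counted. The stretches cover whole transcripts, untranslated parts included, while the annotation behind the deposited counts is not known. With shorter gene models the shares could be lower for other genes too. Vmn1r9, at 90.5%, has 897 coding bases and shares 647 stretches with Vmn1r10. The annotated spans of Vmn1r42 and Vmn1r43 overlap, so both of these are uncertain as well.

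Stretches of 75 coding bases are printed for 2 pairs of closest relatives that return below in the line profiles, in GENCODE M21 sequence of GRCm38, 5′ to 3′, with the bases that differ within a pair in capitals. The first pair, Vmn1r17 and Vmn1r31, shares 94.8% of its coding sequence, and their first 75 coding bases differ at 1 base. They lie on the minus strand at chr6:57361304-57361378 and chr6:58472804-58472878.
Vmn1r17: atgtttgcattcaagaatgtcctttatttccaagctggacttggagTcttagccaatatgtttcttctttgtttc
Vmn1r31: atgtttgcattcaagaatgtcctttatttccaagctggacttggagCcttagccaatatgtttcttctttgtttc

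The second pair, Vmn1r36 and Vmn1r37, shares 97.9% of its coding sequence and 588 stretches of 75 bases. Their first 75 coding bases are the same, at chr6:66716815-66716889 on the minus strand for Vmn1r36 and chr6:66731392-66731466 on the plus strand for Vmn1r37, and a read that lies within them has no single location.
Vmn1r36 and Vmn1r37: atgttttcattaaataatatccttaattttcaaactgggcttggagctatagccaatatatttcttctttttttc

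The aligned coding sequences of Vmn1r36 and Vmn1r37 differ at 10 bases, and 6 of these fall within the following window, where a read can be told apart. The window lies at chr6:66716438-66716512 on the minus strand for Vmn1r36 and at chr6:66731769-66731843 on the plus strand for Vmn1r37.
Vmn1r36: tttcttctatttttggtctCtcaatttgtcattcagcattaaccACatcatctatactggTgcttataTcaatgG
Vmn1r37: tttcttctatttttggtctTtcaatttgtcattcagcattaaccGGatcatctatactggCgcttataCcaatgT

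Counts on genes ranged from 15998552 to 70875276 per library, and the 51 receptors together took 12451 to 65619 of them. Neurons of the VNO were evident in every line, with Omp, the marker of mature sensory neurons, at 1610 to 2550 CPM, the counts scaled to library size, and Gnai2 at 890 to 1310 CPM as line means. Trpc2, the cation channel of these neurons, was listed at 0 counts in each library, and its exons overlap those of the read-through gene Xntrpc. In the RPKM tables Trpc2 had 281 to 400 RPKM. The erythroid genes Hbb-bs and Hba-a1 were also listed at 0 counts, which says nothing about blood, since both have near-identical copies.

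Levels between genes are compared in RPKM, the reads scaled to gene length and library size, as the mean of the male and female library of a line. The lengths behind the RPKM were not those of GENCODE M21, since genes of unlike length had a like ratio of CPM to RPKM. Vmn1r18, with 14362 exon bases, had 19.4 CPM and 25.6 RPKM, and Vmn1r48, with 909, had 0.698 CPM and 0.969 RPKM. Of the 51 receptors, 29 had a mean over the 8 lines of at least 10 RPKM, 17 lay between 1 and 10, 2 between 0.1 and 1, and 3 below 0.1. The median receptor stood at 12.3 RPKM, above 72.9% of all genes, against a median of 4.86 RPKM for the 151 other Vmn1r genes, of which 58 reached 10 RPKM. The blocks differed in level, with a median gene at 12.3 RPKM in the first, 39.7 in the second and 8.31 in the third. The most abundant Vmn1r gene lay elsewhere, at 195 RPKM, while the highest of the 51 had 60.5.

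**Figure D1:**
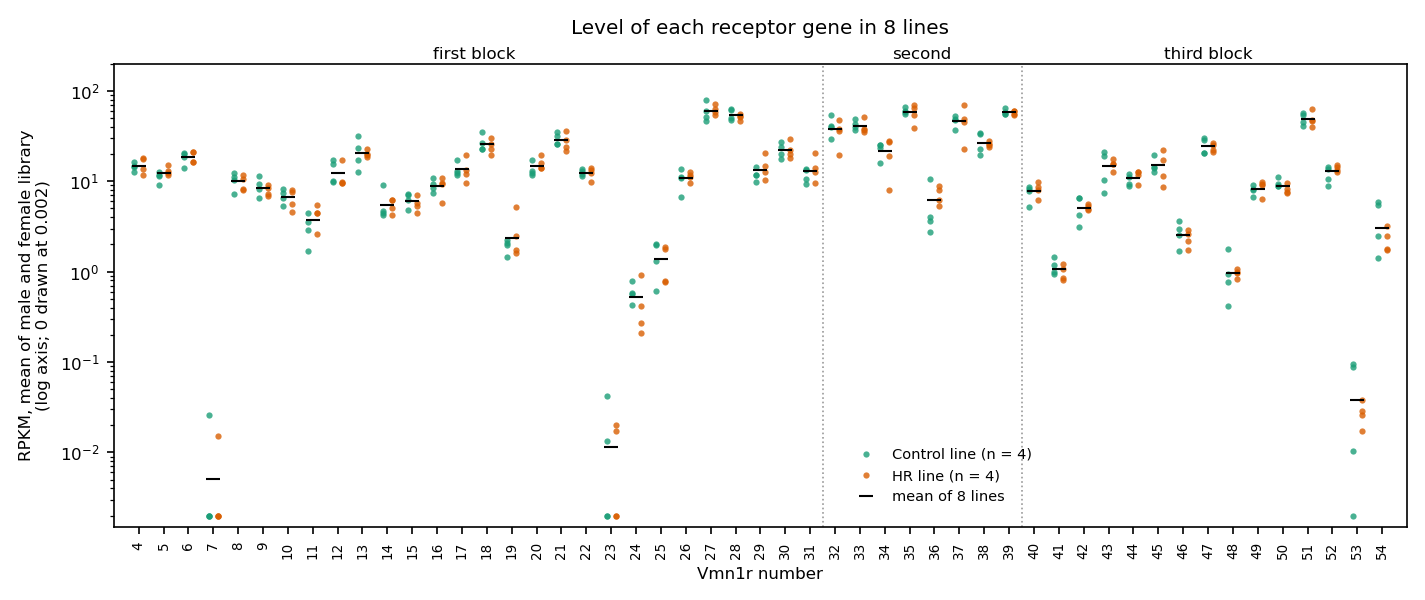
Level of each of the 51 receptors in RPKM on a log axis, in the order of their numbers, with 1 point for each of 4 Control lines (green) and 4 HR lines (orange) and a bar at the mean of 8 lines. The second block sits highest, with 7 of its 8 genes above 20 RPKM, and Vmn1r7, Vmn1r23 and Vmn1r53 lie near 0 in every line.

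The 6 receptors with the highest levels came from all 3 blocks and carried 37.9% of the summed RPKM of the 51. Vmn1r27 of the first block led with 60.5 ± 10.9 RPKM (SD, n = 8 lines). Its line means were 59.5, 79.8, 51.6 and 46.5 in Control lines 1, 2, 4 and 5 and 53.4, 58.9, 63.0 and 71.5 in HR lines 3, 6, 7 and 8. Vmn1r35 of the second block had 58.3 ± 9.74 RPKM. Its lowest line was HR line 6 with 38.4 and its highest HR line 8 with 69.7, while the 4 Control lines lay between 55.4 and 65.9. Ranges of HR and Control lines overlapped for both.

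Vmn1r39 stood out for its evenness, with 58.1 ± 3.47 RPKM. Its line means were 54.9, 64.9, 56.1 and 58.4 in the Control lines and 60.1, 54.4, 59.7 and 56.1 in the HR lines, and no other tested receptor had a smaller fold between its highest and lowest line, at 1.22 in CPM. Vmn1r28 followed with 53.7 ± 6.08 RPKM and line means of 61.4, 63.8, 47.9 and 50.5 in the Control lines and 51.5, 46.8, 55.0 and 52.9 in the HR lines. The gaps between the means of Vmn1r27, Vmn1r35 and Vmn1r39 lay within the spread over lines. Line by line, Vmn1r39 was above Vmn1r28 in all but Control line 1 (54.9 against 61.4 RPKM). Vmn1r28 was above the next receptor, Vmn1r51, in all but HR line 7 (55.0 against 63.1 RPKM).

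Vmn1r51 had 49.3 ± 8.11 RPKM, and its line means ran from 39.4 in HR line 6 to 63.1 in HR line 7, with Control lines at 54, 57.1, 45.4 and 41.3. Its transcripts are long, and it took the most counts of the 51, up to 9013 in a library. Vmn1r37 had 46.6 ± 13.3 RPKM and the widest spread of the 6, from 22.5 in HR line 6 to 69.2 in HR line 8. The gap between Vmn1r51 and Vmn1r37 was also within their spread.

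At the other end, 3 receptors had almost no reads. Vmn1r7 and Vmn1r23 had 0 to 3 counts and Vmn1r53 had 0 to 9 counts per library, and these 3 did not pass the filter on low counts. Their closest relatives were expressed, namely Vmn1r8, 94.9% identical to Vmn1r7, at 9.96 ± 1.91 RPKM, Vmn1r22, 95.8% identical to Vmn1r23, at 12.4 ± 1.42 RPKM, and Vmn1r44, 91.2% identical to Vmn1r53, at 10.9 ± 1.62 RPKM. Vmn1r23 and Vmn1r53 had 87.9% and 95.8% of their stretches of 75 bases to themselves. The next lowest was Vmn1r24 with 0.525 ± 0.246 RPKM, from 0.208 in HR line 6 to 0.928 in HR line 7. Nearest to it were Vmn1r48 with 0.969 ± 0.383 and Vmn1r41 with 1.07 ± 0.219 RPKM, both among the genes with few bases of their own, and these 3 overlapped in their line means.

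Within the V1R family, the 51 receptors held a steady share of the reads. They took 30.0% to 34.6% of all Vmn1r counts in the HR lines, with a mean of 32.9 ± 2.01 (SD, n = 4), and 30.6% to 35.5% in the Control lines, with a mean of 33.4 ± 2.04. Their summed CPM was 785, 658, 949 and 906 in HR lines 3, 6, 7 and 8 and 869, 917, 779 and 804 in Control lines 1, 2, 4 and 5. HR line 6 was lowest, and the Control lines lay inside the range of the HR lines. In bulk tissue, fewer neurons of a receptor type and less RNA in each of them cannot be told apart.

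The low sum of HR line 6 was clearest in the second block, where this line was lowest for 5 of the 8 genes. Its summed level in that block was 203 CPM in the male and 188 CPM in the female library, while the other HR lines had 288 to 337 CPM and the Control lines 257 to 327. In the first block the line's libraries had 283 and 274 CPM, inside the range of 249 to 379 CPM over all libraries. In the third block they had 207 and 162 CPM, of which the female value was the lowest of all libraries. As a share of Vmn1r counts the second block had 8.93% in HR line 6, against 10.2% to 14.4% in the other lines. Omp stood at 1890 CPM and the other Vmn1r genes together at 1540 CPM in that line, neither of them the lowest value among the lines. Some genes of other cells were highest in HR line 6. These were the gland genes Obp1a at 3260 CPM (997 in the next line, Control line 1) and Bpifa1 at 669 CPM, Cyp2a5 of supporting cells at 737 CPM, and Col2a1 of cartilage at 2.97 CPM (2.43 in Control line 4). The other genes of these lists were not, with Bpifb1 at 140 CPM (650 in HR line 3) and Reg3g at 56.7 CPM (420 in Control line 5). Cbr2 had 1180 CPM (1200 in Control line 4), Sox2 306 CPM (411 in HR line 8) and Acan of cartilage 1.6 CPM (4.53 in Control line 4). The part of these cells in the low receptor sum was not tested.

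**Figure D2:**
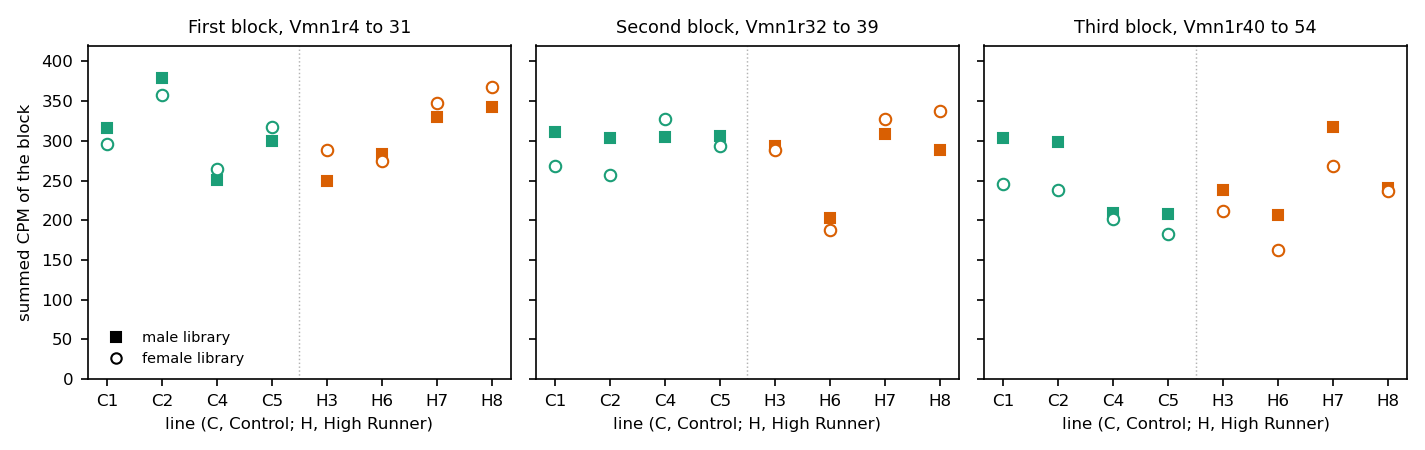
Summed CPM of each block in every line, with filled squares for male and open circles for female libraries, Control lines in green and HR lines in orange. HR line 6 lies below all other lines in the second block, at 203 and 188 CPM, and the female library is below the male library in all 8 lines of the third block.

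The next question was whether lines of the same linetype differed, which asks if the male and the female pool of a line, made from different mice, resemble each other more than pools of other lines. The quasi-likelihood F-test of edgeR over the 6 contrasts among HR lines and among Control lines, with adjusted p over all genes tested, was passed by 35 of the 48 receptors that passed the filter, or 72.9%. The same test was passed by 28.6% of all 16507 genes and by 69 of the 107 other Vmn1r genes tested, or 64.5%. The calls were spread over the blocks, with 19 of 26 genes in the first, 6 of 8 in the second and 10 of 14 in the third. When the summed counts of the other Vmn1r genes replaced the library size, a scaling chosen after the data were seen, 26 of the 48 receptors passed, or 54.2%. This share was near the 51.6% of all genes that passed under that scaling.

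The size of these differences was moderate. The fold between the highest and the lowest line mean in CPM had a median of 1.81 over the 48 receptors, from 1.22 for Vmn1r39 to 4.32 for Vmn1r24, and exceeded 2 in 19 and 3 in 9 of them. The median fold over all genes tested was 1.47 and over the other Vmn1r genes tested 2.19. This fold spans both linetypes, whereas the test compared lines within them. Vmn1r24 (3 to 37 counts per library, adjusted p = 0.11, edgeR) did not pass that test. Neither did Vmn1r48 (fold 4.13, 10 to 53 counts, adjusted p = 0.138, edgeR). The highest line was the same in males and females for 19 of the 48 receptors and the lowest line for 24.

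Particular lines held most of the extremes. HR line 6 and Control line 4 were each lowest for 15 receptors (31.2%), whereas they were lowest for 9.04% and 13.8% of all genes tested. HR line 7, HR line 8 and Control line 2 were each highest for 12 (25.0%), against 10.1%, 17.2% and 11.6% of all genes. HR line 6 was highest for 0 receptors and Control line 2 lowest for 0. The other Vmn1r genes moved with part of this, and Control line 4 had their lowest sum, 1410 CPM. The median deviation of the 48 receptors from their mean over lines was -0.20 in Control line 4, 0.16 in HR line 7 and 0.17 in HR line 8 on the log2 CPM scale. Relative to the other Vmn1r counts it was 0.03, 0.00 and 0.06 in these lines, while Control line 2 had 0.23 and 0.15 and HR line 6 had -0.19 and -0.07. Omp followed part of this order, with its highest line means in HR line 8 (2550 CPM), Control line 2 (2360 CPM) and HR line 7 (2160 CPM), and its part in the extremes was not tested. Omp itself passed the test among lines (adjusted p = 0.0474, edgeR).

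**Figure D3:**
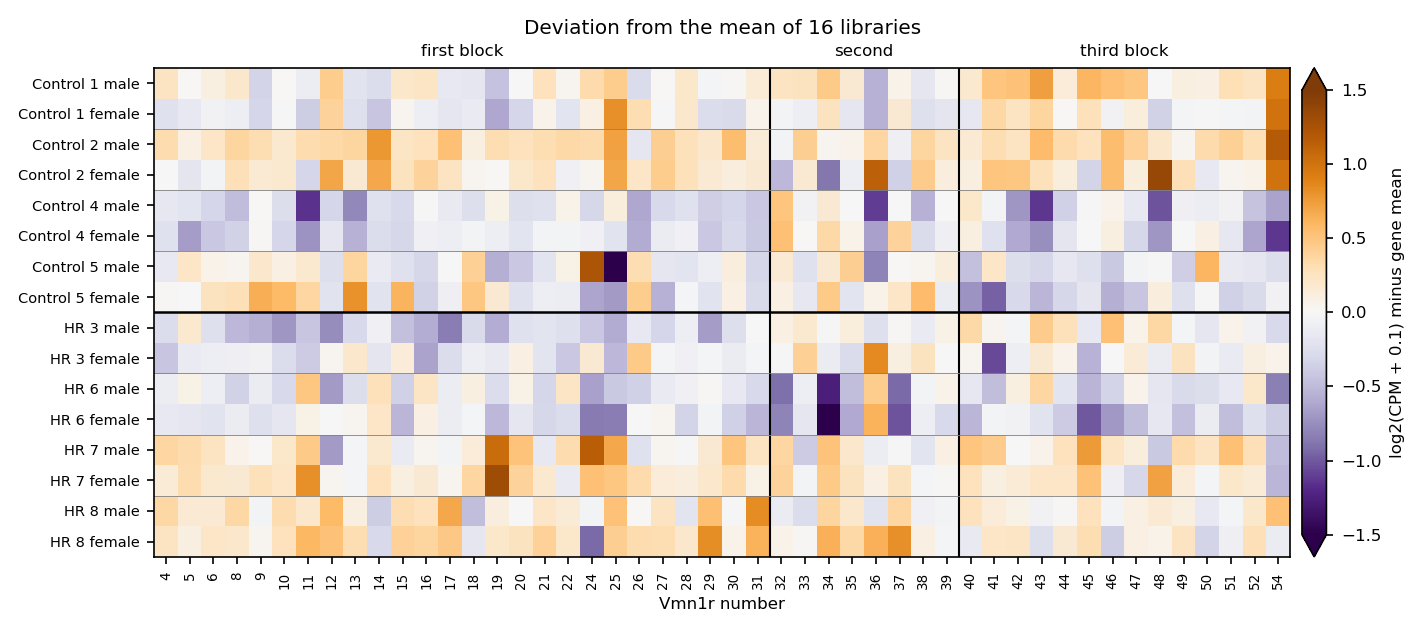
Deviation of log2(CPM + 0.1) from the mean of 16 libraries for the 48 receptors tested, with 2 adjacent bands per line for the male and female library, orange above and purple below the mean. The male and female bands of a line carry like colours in places, for instance at Vmn1r32, Vmn1r34 and Vmn1r37 in HR line 6 (purple) and at Vmn1r19 in HR line 7 (orange).

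Of the 10 receptors with the smallest p among lines, 3 lay in the first block. Vmn1r31 passed with adjusted p = 0.00107 (edgeR). Its male and female libraries had 16.6 and 14.3 CPM in HR line 8, against 9.17 and 9.07 in HR line 3, 7.47 and 6.40 in HR line 6, and 10.9 and 9.77 in HR line 7. The Control lines had 10.2 and 9.56 in line 1, 10.2 and 10.4 in line 2, 6.87 and 6.98 in line 4, and 7.41 and 7.52 in line 5. HR line 8 was thus the highest in both sexes, by a margin larger than the gap between the sexes in any line.

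Vmn1r17, the closest relative of Vmn1r31, was also highest in HR line 8, with 15.9 CPM in males and 13.7 in females. Its other HR libraries lay between 5.44 and 10 CPM, and Control line 2 came next with 14.3 and 11.6 CPM (adjusted p = 0.0116, edgeR). The pair shares 70 stretches of 75 bases, and each has over 96% to itself (96.8% and 96.9%). Vmn1r17 was named for its kinship to Vmn1r31, after its values were seen.

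Vmn1r14 was set apart by Control line 2. Its libraries had 7.05 and 6.59 CPM there, against 3.37 and 3.00 in Control line 1, 3.47 and 3.37 in line 4, and 3.70 and 3.51 in line 5. In the HR lines it had 3.88 and 3.56, 4.93 and 4.74, 4.62 and 4.89, and 3.08 and 3.28 CPM in lines 3, 6, 7 and 8. The adjusted p of 0.00263 (edgeR) rested on this line, since it was 0.0936 without Control line 2.

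Vmn1r13 was highest in Control line 5, with 19.0 CPM in males and 25.5 in females, and lowest in Control line 4, with 8.42 and 9.87. Control lines 1 and 2 had 12.6 and 12.4, and 19.0 and 16.4 CPM. The HR lines were closer together, between 11.8 and 18.0 CPM over 8 libraries. It passed with adjusted p = 0.00593 (edgeR).

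In the second block, 3 of the 10 receptors shared a low value in HR line 6. Vmn1r32 had 43 and 46 CPM in that line against 85.7 and 79.8 in HR line 3, 104 and 106 in HR line 7, and 74.3 and 84.0 in HR line 8. In Control lines 1, 2, 4 and 5 it had 95.3 and 78.1, 78.6 and 56.5, 114 and 117, and 89.6 and 85.6 CPM. The 2 libraries of HR line 6 were the lowest of the 16 (adjusted p = 0.00189, edgeR).

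Vmn1r34 was also lowest in HR line 6, with 6.36 and 4.95 CPM. The other HR lines had 15.2 and 14.2, 21.9 and 21.3, and 20.1 and 24.1 CPM in lines 3, 7 and 8. Control lines 1, 4 and 5 lay between 17.3 and 21.3 CPM, and Control line 2 had 15.8 in males but 8.35 in females. The adjusted p was 0.00455 over all lines and 0.115 without HR line 6 (edgeR).

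Vmn1r37 had 19.6 and 18.5 CPM in HR line 6, the lowest of the 16 libraries, and 48.8 and 66.3 CPM in HR line 8, where each sex was at its highest. HR lines 3 and 7 had 38.1 and 40.4, and 37.3 and 44.7 CPM. The Control lines had 39.4 and 42.2 in line 1, 35.6 and 29.3 in line 2, 37.4 and 49.4 in line 4, and 37.9 and 43.7 in line 5. Its adjusted p was 0.00206, and 0.0632 without HR line 6 (edgeR).

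Vmn1r36, whose sequence differs from that of Vmn1r37 at few bases, did not share the low value of its relative. It had 5.70 and 6.52 CPM in HR line 6, 3.57 and 7.60 in HR line 3, 3.89 and 4.47 in HR line 7, and 3.62 and 6.59 in HR line 8. The Control lines had 2.82 and 2.82 in line 1, 5.42 and 9.27 in line 2, 1.89 and 2.63 in line 4, and 2.36 and 4.4 in line 5. The highest line mean, 7.35 CPM, and the next, 6.11 CPM, fell in Control line 2 and HR line 6, the lines in which the mean of Vmn1r37 was lowest (32.5 and 19.1 CPM). Vmn1r36 passed the test among lines with adjusted p = 0.0133 (edgeR). Since a read with a single mismatch to the reference was dropped, a lower level and a sequence that departs from the reference in a line cannot be told apart in these counts, for this pair or any other receptor.

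The remaining 4 of the 10 lay in the third block. Vmn1r45, a V1ra receptor, had its lowest values in HR line 6 with 29.4 CPM in males and 21.2 in females and its highest in HR line 7 with 72.0 and 61.1. HR lines 3 and 8 had 38.3 and 29.1, and 51 and 52.8 CPM, and Control lines 1, 2, 4 and 5 had 64.8 and 51.3, 50.9 and 33.8, 42.0 and 42.2, and 36.3 and 37.6. HR line 7 lay above and HR line 6 below the other HR lines in each sex (adjusted p = 0.00179, edgeR).

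Vmn1r51, the most heavily counted receptor and a relative of Vmn1r45 at 87.3% identity, had the same extreme lines. Its libraries had 93.7 and 74.4 CPM in HR line 6 and 150 and 120 CPM in HR line 7, with 108 and 95.1 in HR line 3 and 102 and 98.7 in HR line 8. Control lines 1, 2, 4 and 5 had 128 and 102, 139 and 107, 100 and 93.3, and 94.7 and 81.1 CPM. The female library was below the male library in 8 of 8 lines. The adjusted p among lines was 0.00295 (edgeR).

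Vmn1r43 and Vmn1r54 had a wide spread among the Control lines. Vmn1r43 had 21.8 and 17.1 CPM in Control line 1, 19.4 and 15.8 in line 2, 5.89 and 7.77 in line 4, and 10.5 and 9.05 in line 5, whereas all HR libraries lay between 11.0 and 17.9 CPM. Both libraries of Control line 4 were the lowest of the 16 (adjusted p = 0.00526, edgeR). Part of the exons of this gene is shared with Vmn1r42, which had its highest and lowest line means in the same 2 lines, Control line 1 and Control line 4.

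Vmn1r54 had 4.14 and 4.34 CPM in Control line 1 and 4.92 and 4.33 in line 2, but 1.32 and 0.911 in line 4 and 1.77 and 2.04 in line 5. The HR lines had 1.70 and 2.20, 1.15 and 1.61, 1.48 and 1.45, and 3.11 and 1.96 CPM in lines 3, 6, 7 and 8. Control lines 1 and 2 lay above every HR library (adjusted p = 0.00498, edgeR), while the mean of Control line 4, 1.11 CPM, lay below all 4 HR line means.

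**Figure D4:**
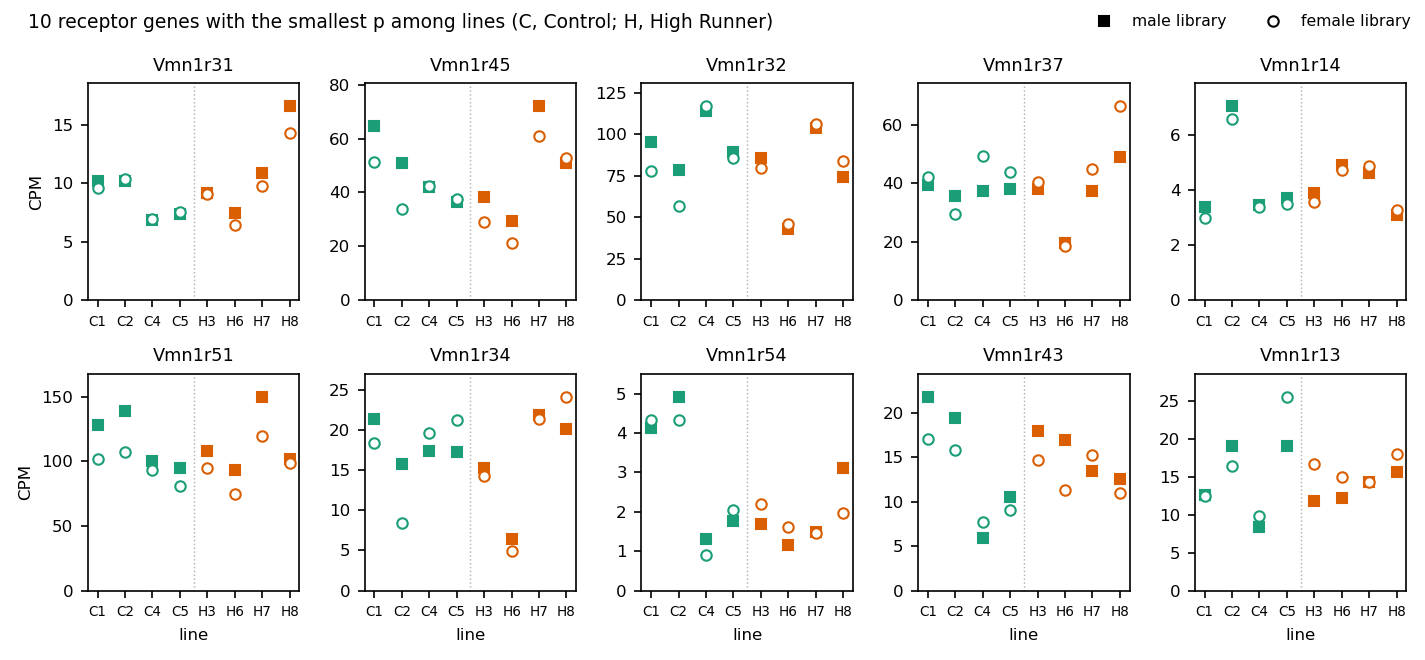
CPM of the 10 receptors with the smallest p among lines, in 4 Control lines (C, green) and 4 HR lines (H, orange), with filled squares for male and open circles for female libraries and axes that start at 0. In Vmn1r31 HR line 8 lies above the other lines in both sexes, in Vmn1r32, Vmn1r34 and Vmn1r37 HR line 6 lies below them in males and females alike, and in Vmn1r14 Control line 2 stands alone at 7.05 and 6.59 CPM.

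The receptors that did not pass the test among lines were 13 of the 48, among them Vmn1r39, Vmn1r28 and Vmn1r33, which have high levels, and Vmn1r49, the receptor for 2-heptanone. Vmn1r49 had line means of 6.69, 7.30, 6.33 and 5.28 CPM in the Control lines and 7.05, 5, 7.72 and 7.34 CPM in the HR lines (adjusted p = 0.0641, edgeR). The share of bases unique to a gene was alike in both sets, with a median of 98.0% in the receptors that passed and 98.2% in those that did not.

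For HR against Control, the comparison for which the lines were bred, 0 of the 48 receptors passed the threshold of 0.05 on the adjusted p, and 0 did so on the unadjusted p (edgeR, 16 libraries, sex in the model). Among all 16507 genes 4 passed, or 0.0242%, and 545 had an unadjusted p under 0.05, or 3.30%. DESeq2 likewise called 0 receptors, with 2 at an unadjusted p under 0.05, beside 3.82% of all genes. On sums over the libraries of a line edgeR called 0 receptors and 0 genes. A limma-voom fit in which line was a random effect called 0 of both, with 1 receptor, Vmn1r36, at an unadjusted p under 0.05, beside 1.59% of all genes. The line means of HR and Control overlapped in all 48 receptors, while they did not overlap in 0.788% of all genes.

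The estimates were small. The log2 fold change was above 0 in 21 receptors and below 0 in 27, with a median of -0.02, beside 0.00 for all genes, and its absolute size had a median of 0.09, beside 0.07 for all genes and 0.17 for the other Vmn1r genes. The median standard error was 0.16, from 0.06 for Vmn1r39 to 0.38 for Vmn1r24, in a fit that takes the 2 libraries of a line as independent. By block the median was -0.01 in the first, -0.06 in the second and 0.01 in the third. The balance of directions hung on single lines, with 32 receptors above 0 and 16 below without Control line 2, and 13 above and 35 below without Control line 4. It also differed between the sexes, with 15 above 0 in males alone and 27 in females alone.

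No receptor met the rule for naming in this comparison, so the 5 that follow were chosen after their values were seen, as the smallest p and the absolute log2 fold changes over 0.4. Vmn1r5 had line means of 9.33, 8.84, 11.4 and 10 CPM in HR lines 3, 6, 7 and 8 and 8.67, 8.86, 6.81 and 9.81 CPM in Control lines 1, 2, 4 and 5. The HR mean of 9.90 ± 1.13 CPM and the Control mean of 8.54 ± 1.26 CPM (SD, n = 4 lines) overlapped in their lines. Its log2 fold change was 0.22 ± 0.11 (SE; unadjusted p = 0.0534, adjusted p = 0.9997, edgeR), and the exact permutation test over 8 line means gave a two-sided p = 0.171, where the smallest p possible is 0.0286.

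Vmn1r54 had the largest estimate, at -0.70 ± 0.34 (SE; unadjusted p = 0.0557, adjusted p = 0.9997, edgeR), with 1.83 ± 0.532 CPM in HR and 2.97 ± 1.73 CPM in Control lines. Control lines 1 and 2 carried the difference, as their values above show, and the exact permutation p over line means was 0.371. Without Control line 4 the estimate was -0.98 and without Control line 2 it was -0.41.

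The other 3 had estimates above 0, with lines of HR and Control that overlapped. Vmn1r11 had 0.46 ± 0.25 (SE), with 1.93, 3.22, 4.14 and 3.47 CPM in the HR lines and 2.19, 2.67, 1.32 and 3.17 CPM in the Control lines (exact permutation p = 0.257). Vmn1r36 had 0.41 ± 0.27, and 0.89 without Control line 2, where its level was highest (exact permutation p = 0.20 with all lines). Vmn1r19 had 0.44 ± 0.29 (exact permutation p = 0.657) and owed it to HR line 7, with 3.70 and 4.44 CPM, since the other HR line means were 1.36, 1.31 and 1.95 and the Control line means 1.17, 1.97, 1.74 and 1.56 CPM. Without HR line 7 its estimate was -0.07.

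The 6 most abundant receptors had log2 fold changes between -0.12 (Vmn1r28) and 0.05 (Vmn1r27). For Vmn1r39 the estimate was -0.03 ± 0.06 (SE), with 42.4 ± 2.13 CPM in HR and 43.4 ± 3.48 CPM in Control lines.

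**Figure D5:**
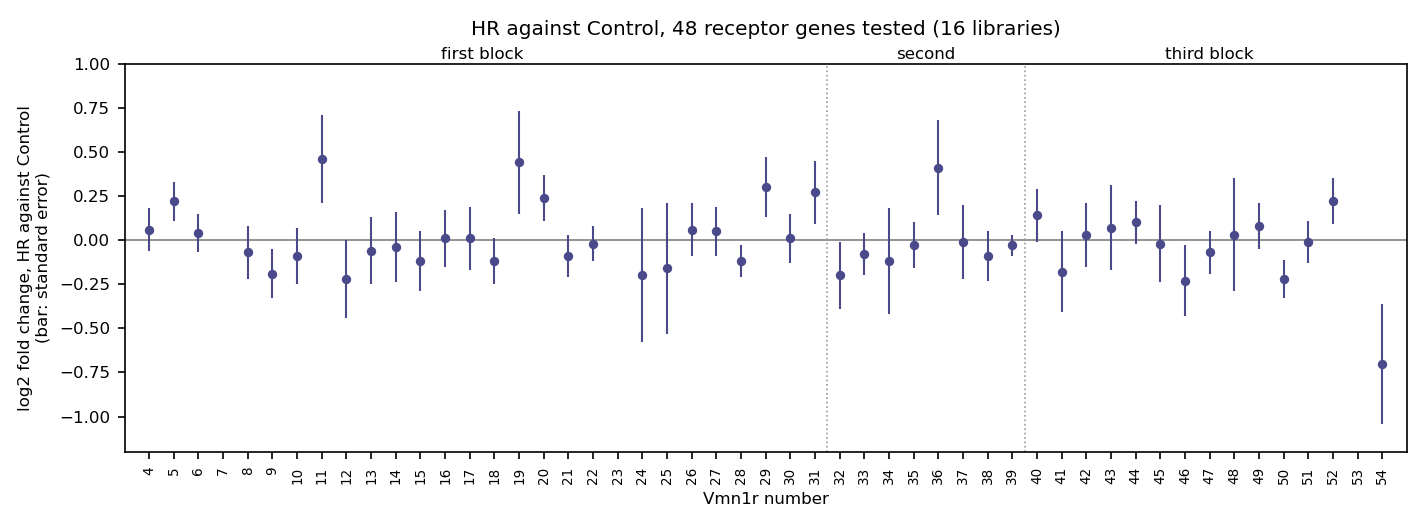
Log2 fold change of HR against Control with its standard error for the 48 receptors tested in 16 libraries, in the order of their numbers (Vmn1r7, Vmn1r23 and Vmn1r53 were not tested). Most points lie within 0.25 of 0 on the log2 scale, and Vmn1r54 is lowest at -0.70.

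The genes around these receptors in the pathway gave 0 calls for HR against Control in either direction. This held for 16 tested of 17 listed genes of vomeronasal neurons and for 21 tested of 23 markers of other cell types. Omp had 2050 ± 403 CPM in HR and 1990 ± 300 CPM in Control lines, and Gnai2 had 1100 ± 183 and 1130 ± 214 CPM. Among the genes of progenitors and immature neurons, Neurod1, a transcription factor of neuronal precursors, had 5.55 ± 0.676 CPM in HR and 6.99 ± 0.606 CPM in Control lines, and its log2 fold change was -0.33 ± 0.15 (SE; unadjusted p = 0.04, adjusted p = 0.9997, edgeR). Neurog1 and Gap43 had -0.36 and -0.13. Of the 16 genes, 6 passed the test among lines, including Omp, Gnai2 (adjusted p = 0.0227) and Vmn2r1 (adjusted p = 0.00191, edgeR). The same test was passed by 13 of the 21 tested markers of other cell types and by 28.6% of all genes.

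Markers of glands had the widest range among those of other tissues. The 4 gland genes Bpifa1, Bpifb1, Reg3g and Obp1a summed to 193 to 4130 CPM in the HR lines, highest in line 6, and 474 to 1330 CPM in the Control lines, and 3 ciliated cell genes to 21.2 to 71.6 and 27.9 to 87.5 CPM. The 3 supporting cell genes had 1580 to 2220 and 1360 to 2060 CPM, and 3 immune genes 16.7 to 29.0 and 20.6 to 26.5 CPM. For 2 endothelial genes it was 16.2 to 40.4 and 24.2 to 43.9 CPM, and for 2 cartilage genes 1.93 to 4.57 and 1.51 to 6.97 CPM. The 4 genes of main olfactory neurons had 247 to 303 and 228 to 311 CPM, mostly from Cngb1 (168 to 239 CPM over the lines) and Adcy3 (52.8 to 68.4 CPM). Cnga2 ranged from 0.063 to 2.66 CPM and Gnal from 4.13 to 14.9 CPM, each highest in Control line 5, then HR line 3. The part of these tissues in the receptor levels was not tested.

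For females against males, 0 of the 48 receptors passed on the adjusted p and 4 had an unadjusted p under 0.05 (edgeR, linetype in the model), a share close to the 8.08% of all genes. Among all genes 31 passed, or 0.188%. Since each deposited table holds 1 sex, sex and sequencing run may coincide and then cannot be told apart. With line as a block, 90 genes passed, still 0 receptors, and 13 receptors had an unadjusted p under 0.05, beside 16.7% of all genes.

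The 4 receptors were Vmn1r22, Vmn1r26, Vmn1r39 and Vmn1r36. With line as a block, which pairs the libraries of a line, their adjusted p was 0.148, 0.0698, 0.184 and 0.0958 (edgeR). In that fit the log2 fold change was 0.37 ± 0.08 (SE) for Vmn1r26 and 0.55 ± 0.14 for Vmn1r36. The values that follow come from the fit without line. Vmn1r26 had 6.27 to 13.1 CPM in female and 6.18 to 11.8 CPM in male libraries, and the female library was above the male one in 8 of 8 lines, with a log2 fold change of 0.38 ± 0.15 (SE; unadjusted p = 0.0236, adjusted p = 0.515, edgeR). Vmn1r36 had 5.54 ± 2.35 CPM in females and 3.66 ± 1.36 CPM in males (SD, n = 8), and females were higher in 7 lines and equal to 3 digits in Control line 1. Vmn1r22, with 9.32 ± 1.22 CPM in females and 11.1 ± 1.39 CPM in males, and Vmn1r39, with 40.8 ± 3.62 and 44.9 ± 2.72 CPM, were higher in females in only 1 of 8 lines each. When the other Vmn1r counts served as library size, the log2 fold change of Vmn1r22 was -0.19 ± 0.12 (SE) in place of -0.25 ± 0.10 and that of Vmn1r39 was -0.09 ± 0.10 in place of -0.14 ± 0.06, and neither had an unadjusted p under 0.05.

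In the third block the summed CPM was lower in the female than in the male library of each of the 8 lines. It was, for instance, 162 against 207 in HR line 6 and 237 against 241 in HR line 8. Vmn1r51, at a mean of 105 CPM, and Vmn1r45, at 44.6 CPM, made up most of this sum. By gene, the female library was higher in 0 of 8 lines for Vmn1r51 and Vmn1r40 and in 5 for Vmn1r48 and Vmn1r49. The other genes of the block lay between. In the first block the female library was the higher in 5 of the 8 lines. The interaction of sex and linetype gave 0 receptors at an adjusted and 0 at an unadjusted p under 0.05 (edgeR), where 0.394% of all genes had an unadjusted p under 0.05. DESeq2 gave 0 and 0 as well, and with line as a block the unadjusted count was 1, Vmn1r33, beside 1.94% of all genes.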

How the data were processed

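Counts per gene were those the authors deposited, whole and without normalization. RPKM were also computed by the authors, per gene length and library size, with Cufflinks named in the submitters' notes. Reads of 75 bases were aligned to GRCm38 with STAR 2.6.1d, with 0 mismatches and 1 location accepted. The counting tool and its use of strand are not given in the sources used here. Summary entries, 4 in the male table with 34.9% to 37.3% of all reads, were left out, and 4 entries with repeated names were dropped from each table.

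edgeR 4.0.16 (R 4.3.3) was run on counts with TMM, filterByExpr at a minimum count of 10 and Benjamini-Hochberg adjustment over all genes tested. Log2 CPM had a prior count of 2. DESeq2 1.42.0, limma 3.58.1, other scalings and filters, and each line left out were alternatives. The main fits, DESeq2, sums per line, line as a random effect and the sex fit with line as a block were also run on simulated data. The other alternatives were not, and the simulated linetype and sex effects came without differences among lines. The lines are the units of selection, so p-values over 16 libraries also measure the spread between libraries of a line.

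Receptors with values were named by rule: the 6 highest and 4 lowest in RPKM, up to 10 by p for linetype and for lines, 4 for sex and 2 for the interaction. The members, gene lists and tests were chosen with earlier results of these data known, and 1 gene of the lists is not reported here. Male and female libraries of a line deviated together from their group means across genes in all 8 lines (r = 0.321 to 0.708), so line numbers pair the libraries. The variance between libraries of a group was at least 32.5 times that of counting noise, as chi-square per degree of freedom. Sequence identity was computed with biopython from GENCODE M21.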

Additional observations from a re-analysis of the deposited data

Results flagged for a closer look

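Each linetype's 4 line means were screened for 1 line far from the others, in 50 groups formed by the named receptors and the block sums, and chance alone marks about 1 group in 20. Control line 2 was marked 2 times. For Vmn1r14 it was far above, with a mean of 6.82 CPM, where the next Control line had 3.60 and the lowest 3.18 CPM. For Vmn1r34 it was far below, with a mean of 12.1 CPM, where the next Control line had 18.5 and the highest 19.8 CPM, and its male library (15.8 CPM) was closer to the others than its female library (8.35 CPM). The female library of Control line 2 held 18475375 counts on genes, and the part of depth in this value was not tested.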

How the results depend on the processing

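No receptor was called for HR against Control, for sex or for the interaction under any alternative run. For HR against Control, the genes called among all tested numbered 4, but 30 with DESeq2 and 0 with counts summed per line, in males alone and in females alone, and 1 to 17 when each line was left out. Libraries of a line were paired, and with line as a random replicate block the count was 0. For sex, 31 genes became 90 with the line as a fixed replicate block, 180 with DESeq2, 175 with limma on log2(RPKM + 1), 19 without a filter, 10 with the other Vmn1r counts as library size (added after the data were seen), and 13 to 25 with each line left out. The interaction gave 0 genes throughout.

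Among lines, 35 receptors became 41 with DESeq2, 26 with the other Vmn1r counts as library size and 24 to 34 with each line left out, lowest without Control line 2. Over all genes, 4714 became 7190, 8517 and 3076 to 4952. With the other Vmn1r counts as library size, 54.2% of the receptors and 51.6% of all genes were called, in place of 72.9% and 28.6%. The log2 fold change of Vmn1r19 was -0.07 to 0.61 with each line left out, and it reversed to -0.07 without HR line 7. The share of the receptors among Vmn1r genes was 31.4% in RPKM and 33.1% in counts, a move beyond the SD over lines that follows from the unit. The causes of the other moves were not tested. The standard errors of 0.06 to 0.38 on the log2 scale came from the fit of 16 libraries. That fit takes the 2 libraries of a line as independent, although their consensus correlation over genes was 0.491. With counts summed per line, the standard error was 0.46 in place of 0.34 for Vmn1r54 and 0.14 in place of 0.11 for Vmn1r5. With 4 lines against 4, small differences between linetypes could not be detected.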
